A study of Mus musculus with 12 samples.

Results

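The genes described here encode 10 receptors through which vessels answer circulating and nerve-borne signals: the endothelin receptors Ednra and Ednrb, the angiotensin II receptors Agtr1a and Agtr2, the alpha-1 adrenergic receptors Adra1a, Adra1b and Adra1d, and the natriuretic peptide receptors Npr1, Npr2 and Npr3. They were taken by gene symbol from a count table of 36512 genes, all 10 were found in it, and all 10 passed the filter on low counts, which left 21285 genes for testing. RNA was measured in progenitor cells, intermediate cells, preadipocytes and smooth muscle cells, which were separated by fluorescence-activated cell sorting from the aorta and its surrounding fat. Every library came from wild-type CD-1 pups at postnatal day 3, with males and females mixed, and each of the 4 populations had 3 libraries. No source used here gives the sort gates. The labels also do not say if libraries of 1 population stem from different litters or different sorts, and p-values then measure only the spread between these libraries, which may be technical.

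Endothelin, angiotensin II and noradrenaline narrow vessels mainly through receptors that couple to the G proteins Gq and G12/13, which raise calcium and sensitise the contractile machinery to it. Ednra and Agtr1a are the classical contractile receptors of smooth muscle for endothelin and angiotensin II. Ednrb is best known in endothelium, where it releases dilators and clears endothelin, and in cells of neural crest origin. Agtr2 is abundant in mesenchyme around birth and counters many effects of Agtr1a. The natriuretic receptors Npr1 and Npr2 are membrane guanylyl cyclases that make cGMP, which relaxes smooth muscle, and Npr3 takes natriuretic peptides out of circulation.

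The genes lie apart in the genome (mm10, GENCODE M21 gene models): Ednra at chr8:77663031-77724464, Ednrb at chr14:103814625-103844402, Agtr1a at chr13:30336441-30382867, Agtr2 at chrX:21484544-21489164, Adra1a at chr14:66635251-66771168, Adra1b at chr11:43774606-43901210, Adra1d at chr2:131545850-131562283, Npr1 at chr3:90450591-90465866, Npr2 at chr4:43631935-43651244 and Npr3 at chr15:11839896-11907287. Exons of 5 of them overlap an exon of a noncoding gene on the opposite strand, over 91 bases in Ednra, 147 in Adra1d, 559 in Npr1, 266 in Npr2 and 321 in Npr3. Use of strand in the counting is not given in the sources used, so reads in those stretches could belong to either gene. Agtr1a also has a near copy, Agtr1b, and reads shared by both cannot be assigned with certainty.

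RefSeq (GRCm38.p6) gave promoter windows for 7 of the 10 genes, 8 windows in all. The stretches before the annotated exons of 4 genes are shown as examples of genes with their highest or lowest level in different populations: Ednra (chr8:77724465-77724702, minus strand) was highest in intermediate cells, Ednrb (chr14:103843702-103843951, minus strand) and Npr1 (chr3:90465867-90466116, minus strand) in smooth muscle, and Agtr2 (chrX:21484374-21484543, plus strand) was lowest in smooth muscle. Each is written 5′ to 3′ on the gene's strand, and capitals mark motif matches.
Ednra: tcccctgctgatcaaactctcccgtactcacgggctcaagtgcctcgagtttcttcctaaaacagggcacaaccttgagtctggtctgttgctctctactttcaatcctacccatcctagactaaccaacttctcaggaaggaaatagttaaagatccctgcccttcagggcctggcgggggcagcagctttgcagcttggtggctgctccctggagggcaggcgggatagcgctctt
Ednrb: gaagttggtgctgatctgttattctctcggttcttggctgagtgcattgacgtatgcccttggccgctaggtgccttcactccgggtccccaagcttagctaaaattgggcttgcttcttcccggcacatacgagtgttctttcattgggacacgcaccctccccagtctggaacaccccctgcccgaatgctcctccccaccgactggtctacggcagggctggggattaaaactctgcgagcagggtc
Agtr2: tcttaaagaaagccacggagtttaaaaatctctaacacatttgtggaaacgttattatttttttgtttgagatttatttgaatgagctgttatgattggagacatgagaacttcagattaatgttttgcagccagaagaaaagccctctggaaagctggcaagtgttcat
Npr1: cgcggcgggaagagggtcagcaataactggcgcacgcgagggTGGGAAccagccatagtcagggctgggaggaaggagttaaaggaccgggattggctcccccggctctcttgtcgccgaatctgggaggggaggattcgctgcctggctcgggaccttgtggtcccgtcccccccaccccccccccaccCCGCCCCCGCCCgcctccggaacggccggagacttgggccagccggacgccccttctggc
A search of the 250 bases before each start, on both strands, covered the CArG box, the TEAD element CATTCC, the RBPJ element TGGGAA, the TATA box TATAAA and the GC box GGGCGG, and no match overlapped another. The Npr1 stretch held 1 TGGGAA, 208 bases before the start, and GGGCGG in reverse complement at 60 and 54 bases before the start. Of 2 Adra1b windows, 1 held a GC box. The windows of Ednra, Ednrb, Agtr2, Npr2 and Npr3 held none of these letters. Among 32851 promoter windows of the same length, 21.59% held the RBPJ element, 32.74% the GC box, 12.64% the TEAD element, 12.37% the TATA box and 1.47% a CArG box. In base composition the 250-base Npr1 window was 70.4% G and C with 21 CpG sites. The 250-base Agtr2 window, 80 bases of which are annotated exon, was 38.4% with 3. Medians over all windows were 52.4% and 6, and 37.77% of all windows had 3 CpG sites or fewer.

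Libraries held 11701825 to 17123109 counts. Levels below are counts scaled to a common library total (CPM) after TMM scaling, given in the order of replicates 1, 2 and 3. The labels do not say if equal replicate numbers pair libraries across populations. The smooth muscle markers checked the label: all 8 were higher in that population than in the mean of the other 3, and their sum was 6908 to 7577 CPM there, 894 to 1196 in intermediate cells and 121 to 220 in the other libraries. Smooth muscle libraries also held more of 3 further marker sums: 84.7 to 108 CPM of Schwann and melanocyte markers against 8.47 to 21.3 elsewhere, 494 to 687 CPM of sympathetic neuron markers against 1.505 to 97.8, and 984 to 1353 CPM of mesothelial markers against 14.1 to 176. No marker of these 3 lists was at 0 in all 3 libraries of a population. A further sum, of pericyte markers including Rgs5, was also highest in smooth muscle, at 1663 to 2003 CPM. It was 1261 to 1471 CPM in intermediate, 446 to 504 in progenitor and 87.1 to 150 in preadipocyte libraries. Of its 7 markers, 6 were higher and 1 lower in smooth muscle than in the mean of the other 3 (33.6% and 23.4% of all genes). Against intermediate cells 4 were higher, 1 lower and 2 not called (15.7% of all genes higher, 13.1% lower). Preadipocyte library 3 stood apart with 15141 CPM of red blood cell markers, against 923 and 1166 in the other 2. Counts over 1149 olfactory and vomeronasal receptor genes, few of which are known to be active in vessels, were used to estimate an even background per kilobase of exon. They summed to 745 to 1078 CPM by library size in smooth muscle and to 39.2 to 330 in the other libraries. In sorted bulk samples, a lower value can come from fewer cells of a type or from less RNA per cell, and these cannot be told apart.

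Of the 10 receptor genes, 9 differed among the 4 populations, against 79.8% of all genes tested, and Adra1a did not pass (edgeR quasi-likelihood F test, Benjamini-Hochberg adjusted p = 0.187). Against the mean of the other 3 populations 57% of all genes passed. Of the receptor genes, 6 were higher in smooth muscle (33.6% of all genes were) and 1 was lower (23.4%). The 6 were Ednra, Ednrb, Adra1b, Adra1d, Npr1 and Npr3, and the 1 that was lower was Agtr2. The median log2 difference over the 10 genes was 1.07, and it stayed 1.07 with Adra1d at its lower bound, beside 0.11 over all genes. These counts depended on scaling and filter. By library size alone, 9 receptor genes were higher in smooth muscle, and the split over all genes moved from 7159 higher and 4981 lower to 9793 higher and 2349 lower. With a filter of 5 CPM in 3 libraries, which leaves out the alpha-1 genes, 4 were higher. The split over all genes was then 3644 higher and 3967 lower. The count was 5 with no filter or without smooth muscle library 2, and 7 without preadipocyte library 3. For 5 genes (Ednrb, Adra1b, Adra1d, Npr1 and Npr3) all 3 smooth muscle libraries lay above the 9 others, an arrangement seen in 18.8% of all genes. The highest mean level was in smooth muscle for 6 genes, in progenitor cells for Agtr1a and Agtr2, in intermediate cells for Ednra and Npr2, and in preadipocytes for none, while 35.3%, 18.4%, 16.7% and 29.6% of all genes peaked in these populations.

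**Figure D1:**
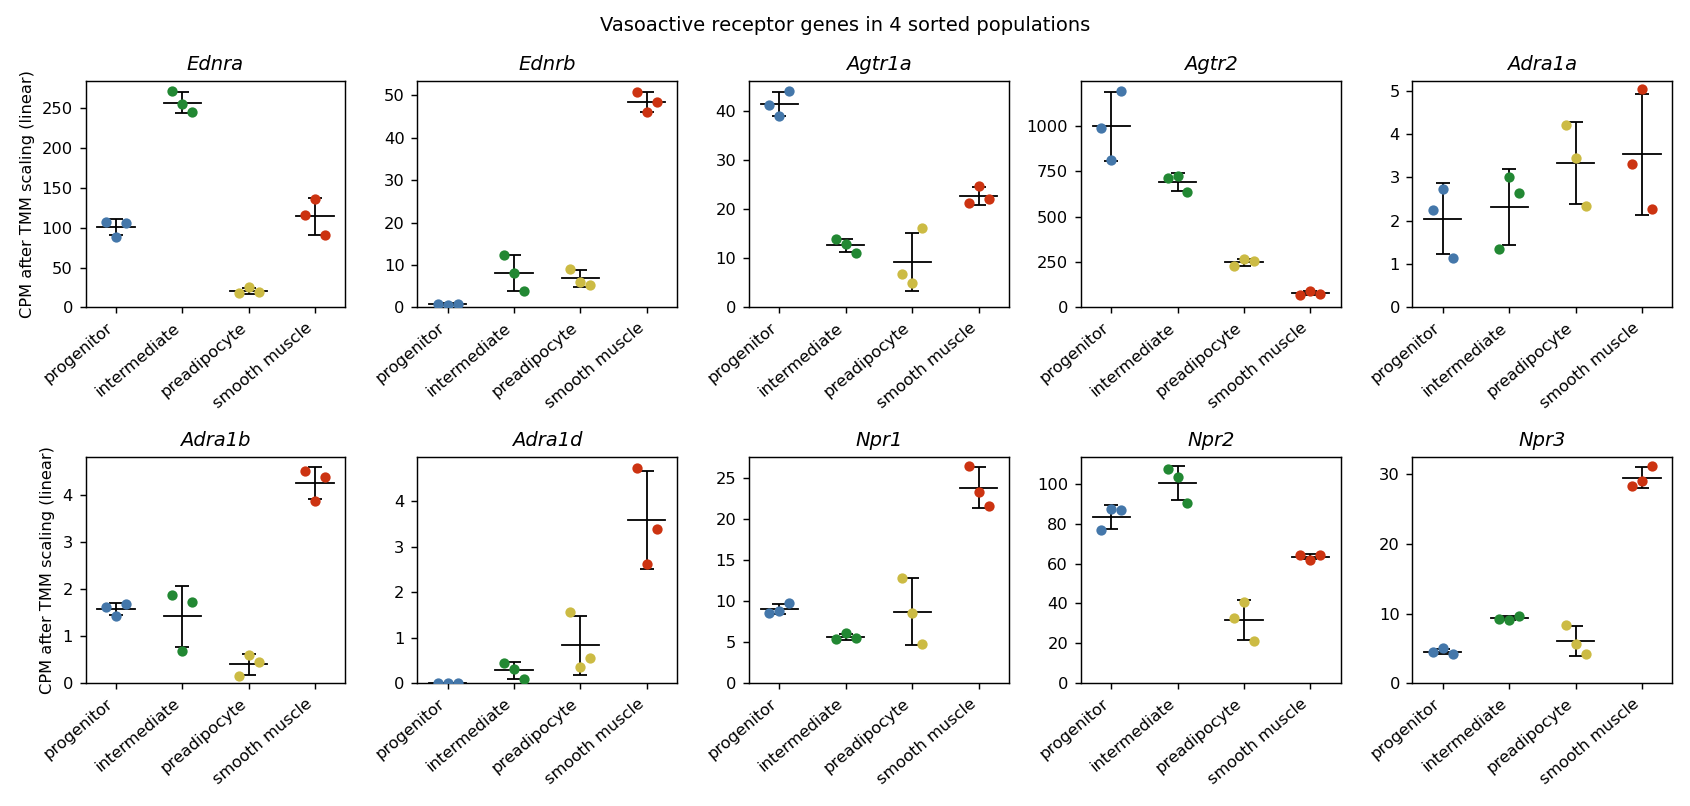
Level of each receptor gene in every library, in CPM after TMM scaling on linear axes that start at 0 and differ between panels; points are libraries, the long bar is the mean and the whiskers are 1 SD (n = 3). Ednrb, Adra1b, Adra1d, Npr1 and Npr3 sit highest in smooth muscle, Agtr2 lowest there, and Ednra peaks in intermediate cells with 246 to 272 CPM.

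Ednra, the contractile endothelin receptor, was most abundant in the intermediate cells. Its levels were 107, 89.1 and 106 CPM in the progenitor libraries, 272, 255 and 246 in intermediate libraries, 18.4, 25.1 and 19.7 in preadipocyte libraries and 116, 137 and 90.9 in smooth muscle libraries. Every intermediate library lay above every other library and every preadipocyte library below, while the progenitor and smooth muscle ranges overlapped. Smooth muscle cells had 2.25-fold less Ednra RNA than intermediate cells (log2 -1.17 ± 0.16 SE, edgeR adjusted p = 3.22e-05) and 5.43-fold more than preadipocytes (log2 2.44 ± 0.17, adjusted p = 7.47e-09). Between smooth muscle and progenitor cells the difference did not pass (log2 0.18 ± 0.16, adjusted p = 0.337), although it did with library size alone (log2 0.63, adjusted p = 0.0021) and with a filter of at least 5 CPM in 3 libraries (log2 0.38, adjusted p = 0.035). Preadipocytes had 12.2-fold less than intermediate cells (adjusted p = 2.14e-10). The call against the mean of the other 3 populations was small (log2 0.49 ± 0.12, adjusted p = 0.00376), and it was lost without smooth muscle library 2 (log2 0.34, adjusted p = 0.056) and with no filter on low counts (log2 0.09, adjusted p = 0.625).

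Ednrb, the second endothelin receptor, had its highest level in smooth muscle. Smooth muscle libraries held 50.9, 46.1 and 48.5 CPM, preadipocyte libraries 9.18, 6.10 and 5.24, intermediate libraries 12.3, 8.12 and 3.997, and progenitor libraries 0.931, 0.479 and 0.737. All smooth muscle libraries were above all others and all progenitor libraries below, with intermediate and preadipocyte libraries overlapping. Smooth muscle exceeded progenitor cells 67.5-fold (log2 6.08 ± 0.39, adjusted p = 6.64e-09), intermediate cells 5.94-fold (adjusted p = 8.54e-06) and preadipocytes 7.07-fold (adjusted p = 9.92e-07). Progenitor libraries held only 7 to 12 Ednrb counts, of which the even background would account for 10.7%. Schwann and melanocyte precursors and endothelium are known to express Ednrb, and of the Schwann and melanocyte markers 6 of 7 tested were higher and 1 lower in smooth muscle than in the other 3. Their part in the Ednrb difference was not tested. Sums of endothelial markers overlapped among the populations (81.2 to 184 CPM in smooth muscle libraries, 58.1 to 167 among intermediate, 59.8 to 190 among preadipocyte and 130 to 148 among progenitor libraries), and against intermediate cells 1 of 8 endothelial markers was higher in smooth muscle. Against progenitor cells, however, 7 of 8 endothelial markers were higher and 1 lower in smooth muscle, and their part was likewise not tested.

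The balance of the 2 endothelin receptors can be read within a library, where scaling between libraries plays no role. Per kilobase of exon, Ednra exceeded Ednrb in every library in which both reached 10 counts. The log2 ratio was 6.48 and 6.81 in the 2 progenitor libraries that qualified, while intermediate libraries had 4.11 to 5.58, preadipocyte libraries 0.64 to 1.68 and smooth muscle libraries 0.55 to 1.21. As mean ratios these were 27.2 in intermediate cells, 2.45 in preadipocytes and 1.82 in smooth muscle. The preadipocyte and smooth muscle ranges overlapped, although the Ednra level differed between these populations by the 5.43-fold given above.

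Agtr1a, which mediates contraction to angiotensin II, was highest in progenitor cells rather than in smooth muscle. Progenitor libraries held 41.1, 39.1 and 44.1 CPM, smooth muscle libraries 21.3, 24.7 and 22.04, intermediate libraries 13.9, 12.9 and 11.2, and preadipocyte libraries 6.86, 5.08 and 16.1. The progenitor libraries were above all others, the smooth muscle libraries were next with no overlap, and the intermediate libraries fell inside the preadipocyte range. Compared with progenitor cells, smooth muscle had 1.82-fold less (log2 -0.87 ± 0.28, adjusted p = 0.0173), intermediate cells 3.27-fold less (adjusted p = 0.000617) and preadipocytes 4.42-fold less (adjusted p = 1.65e-05). The first of these calls was lost without progenitor library 3 or smooth muscle library 1 or 3 (adjusted p = 0.067, 0.060 and 0.051), and also with library size alone (log2 -0.42, adjusted p = 0.250), the 5 CPM filter (log2 -0.67, adjusted p = 0.089) or the background subtracted (log2 -0.73, adjusted p = 0.055). Smooth muscle exceeded intermediate cells 1.79-fold (adjusted p = 0.041), a call lost without any 1 of the progenitor, intermediate or smooth muscle libraries and with no filter on low counts (log2 0.58, adjusted p = 0.134). Preadipocyte library 3, the library rich in red blood cell RNA, carried the high Agtr1a value of its population. Without it, preadipocytes were lower than intermediate cells (log2 -1.08, adjusted p = 3.7e-05), whereas with it they were not called (log2 -0.43, adjusted p = 0.222). Also without it, smooth muscle passed against the mean of the other 3 (log2 0.63, adjusted p = 0.00013, against 0.42 and 0.131 with it), as it did with all libraries when scaling by library size alone (log2 0.74, adjusted p = 0.017).

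Agtr2 had the highest mean level per kilobase of exon of the 10 genes in every population. In smooth muscle this lead was small, at 23.3 CPM against 20.9 for Ednra, and Ednra was higher in smooth muscle library 1. Agtr2 was also the only 1 of the 10 genes with its lowest mean in smooth muscle. Agtr2 was measured at 988, 813 and 1189 CPM in the progenitor libraries, at 715, 724 and 634 in the intermediate libraries, at 228, 265 and 256 in the preadipocyte libraries and at 68.2, 90.5 and 73.7 in the smooth muscle libraries. No ranges overlapped, and the order ran from progenitor through intermediate and preadipocyte to smooth muscle. Smooth muscle had 12.9-fold less than progenitor cells (log2 -3.68 ± 0.17, adjusted p = 2.05e-10), 8.92-fold less than intermediate cells (adjusted p = 2.36e-09) and 3.22-fold less than preadipocytes (adjusted p = 1.72e-07). It was the 1 receptor gene called in all 6 pairs of populations, which 3.07% of all genes were. The smallest of these steps, intermediate against progenitor cells (log2 -0.53 ± 0.15, adjusted p = 0.0175), was lost without progenitor library 1 or 3 or without any 1 intermediate library (adjusted p from 0.057 to 0.145).

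Within each library, Agtr2 exceeded Agtr1a per kilobase of exon. The log2 ratio was 1.42 to 1.62 in smooth muscle libraries, while progenitor libraries had 4.12 to 4.50, intermediate libraries 5.43 to 5.57 and preadipocyte libraries 3.74 to 5.45. Expressed as mean ratios, Agtr2 stood 19.9, 45.9 and 25.3 times above Agtr1a in the first 3 populations and 2.84 times above it in smooth muscle, where no library reached the range of any other population.

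**Figure D2:**
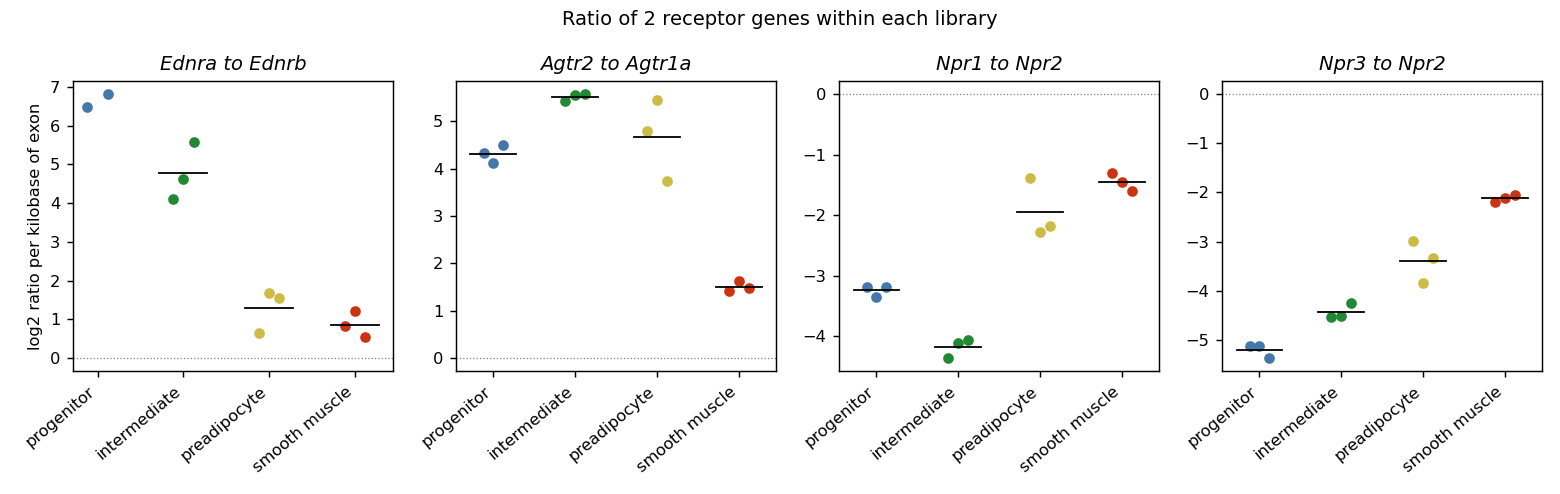
Log2 ratio of exon-length-scaled counts of 2 receptor genes within each library; points are libraries, bars are means where all 3 libraries had at least 10 counts of both genes, and the dotted line marks equal levels. The Agtr2 to Agtr1a ratio is 1.42 to 1.62 in smooth muscle and at least 3.74 in all other libraries, and Npr3 to Npr2 is highest in smooth muscle at -2.19 to -2.06.

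The alpha-1 adrenergic receptors, which carry the contractile response to noradrenaline, were the family with the lowest summed level per kilobase of exon in each population. Adra1a measured 2.25, 2.74 and 1.14 CPM in the progenitor libraries, 1.34, 3.01 and 2.63 in the intermediate, 4.21, 3.45 and 2.34 in the preadipocyte and 3.30, 5.03 and 2.26 in the smooth muscle libraries. All 4 ranges overlapped and none of the 6 pairs passed (adjusted p from 0.10 to 0.849). The even background would account for 40.5% of Adra1a counts in smooth muscle and 23.6% in intermediate cells, and the libraries held 15 to 79 counts. With scaling by library size alone, smooth muscle passed against progenitor cells (log2 1.24, adjusted p = 0.018), intermediate cells (log2 1.08, adjusted p = 0.040) and the mean of the other 3 (log2 0.82, adjusted p = 0.036), and preadipocytes passed against progenitor cells (log2 1.10, adjusted p = 0.032). The last pair also passed without progenitor library 2 or intermediate library 1 (adjusted p = 0.043 and 0.047).

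Adra1b was low and highest in smooth muscle. The smooth muscle libraries held 4.52, 3.88 and 4.38 CPM, the progenitor libraries 1.63, 1.44 and 1.67, the intermediate libraries 1.87, 0.677 and 1.73, and the preadipocyte libraries 0.162, 0.604 and 0.446. Smooth muscle libraries were above all others and preadipocyte libraries below, while the progenitor range lay inside the intermediate range. Smooth muscle exceeded progenitor cells 2.69-fold (adjusted p = 0.00425), intermediate cells 3.01-fold (adjusted p = 0.00452) and preadipocytes 10.5-fold (log2 3.39 ± 0.42, adjusted p = 4.41e-06). These values rest on 61 to 63 counts per smooth muscle library, of which the even background would account for 13.3%. Preadipocyte libraries held only 3 to 10 Adra1b counts (17.6% by the background), so the 10.5-fold difference rests on few counts. Preadipocyte library 2 held 10 counts with 0.455 expected from background, and intermediate library 2 held 9 with 3.20 expected. Whether the order of these libraries holds above background was not tested.

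Adra1d had no count in any progenitor library, where 3 counts would correspond to 0.201 to 0.233 CPM. Intermediate libraries held 0.446, 0.301 and 0.0908 CPM, preadipocyte libraries 1.57, 0.363 and 0.557, and smooth muscle libraries 4.73, 2.61 and 3.39. Every smooth muscle library lay above every other library. Smooth muscle was at least 15.4-fold higher than progenitor cells, taking the largest of the progenitor floors, and 12.4-fold higher than intermediate cells (log2 3.63 ± 0.61, adjusted p = 0.000446) and 4.24-fold higher than preadipocytes (adjusted p = 0.00256). In smooth muscle the even background would account for 8.93% of the 41 to 66 counts. Intermediate cells passed against progenitor cells (adjusted p = 0.0255) on 5, 4 and 1 counts, but not with the even background subtracted (adjusted p = 0.086), nor without any 1 progenitor library or intermediate library 1 or 2 (adjusted p from 0.055 to 0.071). The even background would account for 43.1% of those counts, and whether the level in intermediate cells exceeds background was not tested. Preadipocytes against intermediate cells did not pass (log2 1.55 ± 0.67, adjusted p = 0.062), but this call depended on the settings. The pair passed with DESeq2 (log2 1.68, adjusted p = 0.041), median-ratio factors, library size alone, no filter, the background subtracted or the replicate block (adjusted p from 0.024 to 0.047). It also passed without any 1 progenitor library, intermediate library 1, or preadipocyte library 2 or 3 (adjusted p from 0.026 to 0.045).

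Among these 3 genes, Adra1d had the highest mean level per kilobase of exon in smooth muscle, with 1.88 ± 0.57 CPM (SD, n = 3), followed by Adra1b with 1.2596 ± 0.10 and Adra1a with 0.40 ± 0.16. Adra1d exceeded Adra1b in each smooth muscle library, with a log2 ratio of Adra1b to Adra1d of -0.90 to -0.26. Libraries of the other populations did not reach 10 counts of both genes, so no ratio was taken there.

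Npr1, the guanylyl cyclase that binds the atrial and B-type peptides, was raised in smooth muscle against each other population. Levels in smooth muscle were 26.5, 23.3 and 21.6 CPM, those in progenitor libraries 8.62, 8.75 and 9.78, those in intermediate libraries 5.35, 6.09 and 5.54, and those in preadipocyte libraries 12.8, 8.58 and 4.73. The smooth muscle libraries were separate, and the wide preadipocyte range covered the progenitor and intermediate ranges. The excess in smooth muscle was 2.63-fold over progenitor cells (log2 1.40 ± 0.26, adjusted p = 0.000403), 4.20-fold over intermediate cells (log2 2.07 ± 0.27, adjusted p = 2.31e-05) and 2.73-fold over preadipocytes (adjusted p = 0.000165). The other 3 pairs did not pass. Intermediate cells were nearest to passing against both neighbours (adjusted p = 0.076 against progenitor cells and 0.060 against preadipocytes), and both pairs passed without preadipocyte library 3 (log2 -0.67 and 0.92, adjusted p = 0.0081 and 0.00052). Against preadipocytes the pair passed as well with DESeq2, median-ratio factors, library size alone or no filter, and without any 1 progenitor library or intermediate library 2 (adjusted p from 0.0041 to 0.035). Against progenitor cells it passed with no filter, in a fit of these populations alone and without preadipocyte library 1 (adjusted p = 0.013, 0.0055 and 0.025).

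Npr2, the guanylyl cyclase for C-type natriuretic peptide, had the smallest spread of mean levels in the family, 3.18-fold from preadipocytes to intermediate cells. Its level was 107, 103 and 90.7 CPM in intermediate libraries, 76.7, 87.3 and 86.9 in progenitor libraries, 64.1, 62.02 and 64.4 in smooth muscle libraries and 32.9, 40.9 and 21.1 in preadipocyte libraries. Preadipocyte libraries were below all others, smooth muscle libraries came next, and progenitor libraries lay below intermediate libraries without overlap. Preadipocytes had 2.65-fold less than progenitor cells (adjusted p = 9.42e-06), 3.18-fold less than intermediate cells (adjusted p = 1.29e-06) and 2.01-fold less than smooth muscle (adjusted p = 0.000191). Smooth muscle was 1.58-fold below intermediate cells (adjusted p = 0.0111), a call lost when scaling by library size alone (log2 -0.17, adjusted p = 0.368). Against progenitor cells the smooth muscle difference did not pass (log2 -0.40 ± 0.18, adjusted p = 0.0731), and it passed when preadipocyte library 3 was left out (log2 -0.40, adjusted p = 0.0081) or library 2 (adjusted p = 0.030), with no filter (log2 -0.88, adjusted p = 0.00025) and in a fit of these populations alone (log2 -0.40, adjusted p = 0.0045).

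Npr3, the clearance receptor, was highest in smooth muscle. Npr3 values were 28.3, 29.01 and 31.2 CPM in smooth muscle libraries, 9.27, 9.02 and 9.63 in intermediate libraries, 8.31, 5.68 and 4.18 in preadipocyte libraries and 4.42, 4.99 and 4.22 in progenitor libraries. Smooth muscle libraries were above intermediate libraries and these above the rest, whereas preadipocyte and progenitor ranges overlapped. Smooth muscle exceeded progenitor cells 6.48-fold (log2 2.70 ± 0.22, adjusted p = 8.35e-08), intermediate cells 3.17-fold (adjusted p = 1.48e-05) and preadipocytes 4.86-fold (adjusted p = 1.82e-07). Intermediate cells had 2.04-fold more than progenitor cells (log2 1.03 ± 0.22, adjusted p = 0.00313). Preadipocytes were 1.53-fold below intermediate cells (log2 -0.62 ± 0.21, adjusted p = 0.0214), but this call was lost without any 1 progenitor or intermediate library and without preadipocyte library 2 or 3 (adjusted p from 0.055 to 0.145). It was also lost with library size alone (log2 -0.18, adjusted p = 0.485), with no filter (log2 -0.43, adjusted p = 0.161) and in a fit of these populations alone (log2 -0.52, adjusted p = 0.127). Preadipocytes against progenitor cells did not pass (log2 0.41 ± 0.22, adjusted p = 0.127), but did with DESeq2, median-ratio factors, library size alone or the 5 CPM filter, and without progenitor library 2, any 1 intermediate library or preadipocyte library 3 (adjusted p from 0.0055 to 0.048). The even background would account for 5.30% of Npr3 counts in smooth muscle.

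Npr2 was the leading natriuretic receptor per kilobase of exon in all 12 libraries. Npr3 lay 37.04 times below it in progenitor cells, 21.7 times below in intermediate cells, 10.5 times below in preadipocytes and 4.33 times below in smooth muscle. The log2 ratios of Npr3 to Npr2 did not overlap between any 2 populations, running from -5.37 to -5.12 in progenitor to -2.19 to -2.06 in smooth muscle libraries. Npr1 lay 9.47, 18.2, 3.88 and 2.74 times below Npr2 in the same order, with the preadipocyte and smooth muscle ranges overlapping.

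**Figure D3:**
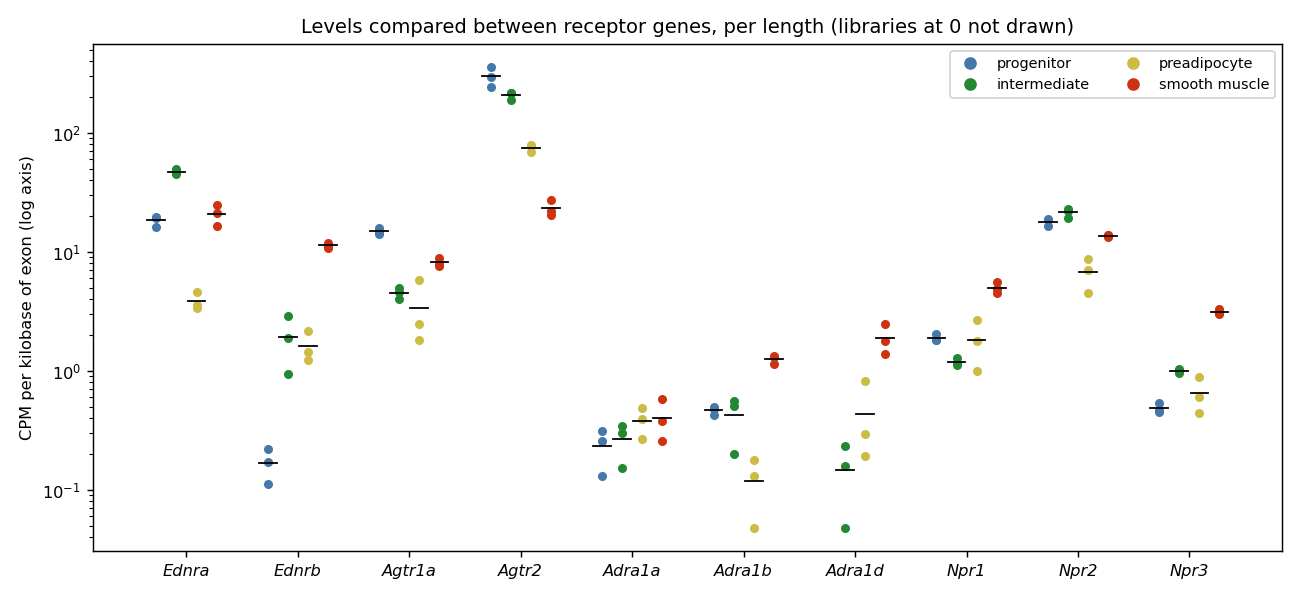
Level of each receptor gene per kilobase of exon, in CPM after TMM scaling divided by exon length, on a log axis; points are libraries, bars are means of 3, and libraries at 0 (Adra1d in progenitor cells) are not drawn. Agtr2 leads in progenitor, intermediate and preadipocyte cells, and in smooth muscle it is close to Ednra.

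Added up per kilobase of exon, the 10 genes came to 354 ± 59.2 CPM for progenitor cells, 286 ± 19.8 for intermediate cells, 94.04 ± 5.55 for preadipocytes and 88.99 ± 6.69 for smooth muscle (SD, n = 3). Agtr2 made up 84.4% ± 1.92 of this sum in progenitor cells, 72.7% ± 0.81 in intermediate cells, 79.8% ± 2.17 in preadipocytes and 26.1% ± 2.51 in smooth muscle. The remainder in smooth muscle was spread over Ednra with 23.4% ± 3.05, Npr2 with 15.4% ± 1.42, Ednrb with 12.8% ± 1.39, Agtr1a with 9.16% ± 0.42, Npr1 with 5.61% ± 0.64 and Npr3 with 3.55% ± 0.41. Adra1d, Adra1b and Adra1a contributed 2.14%, 1.43% and 0.447%. Smooth muscle thus had no receptor gene of this set with as large a share as Agtr2 held in the other 3 populations. In intermediate cells Ednra was next after Agtr2, with 16.5% ± 0.67.

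In pairs of populations the receptor genes divided as follows. Smooth muscle had 5 higher and 2 lower than progenitor cells, where 54.1% of all genes differed, 30.5% higher and 23.6% lower. It had 6 higher and 3 lower than intermediate cells, where 28.8% of all genes differed (15.7% and 13.1%), and 8 higher and 1 lower than preadipocytes, where 66.6% did (40.7% and 25.9%). Intermediate cells had 4 higher and 2 lower than progenitor cells, beside 27.6% of all genes (14.1% and 13.4%). Preadipocytes had 2 higher and 5 lower than progenitor cells, beside 50.9% (25.1% and 25.9%), and none higher and 5 lower than intermediate cells, beside 57.1% (26% and 31.1%). The 5 genes lower in preadipocytes than in intermediate cells were Ednra, Agtr2, Adra1b, Npr2 and Npr3. Adra1d is counted as higher in each population than in progenitor cells. Altogether 43 of 60 tests passed, to be read beside the shares of all genes given above for each pair. Ednra, Ednrb, Agtr1a, Adra1b, Adra1d and Npr3 passed in 5 pairs each, as 16.3% of all genes did. Npr2 passed in 4, as 16.8% did, Npr1 in 3, as 27.1% did, and Adra1a in none, as 14% did.

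**Figure D4:**
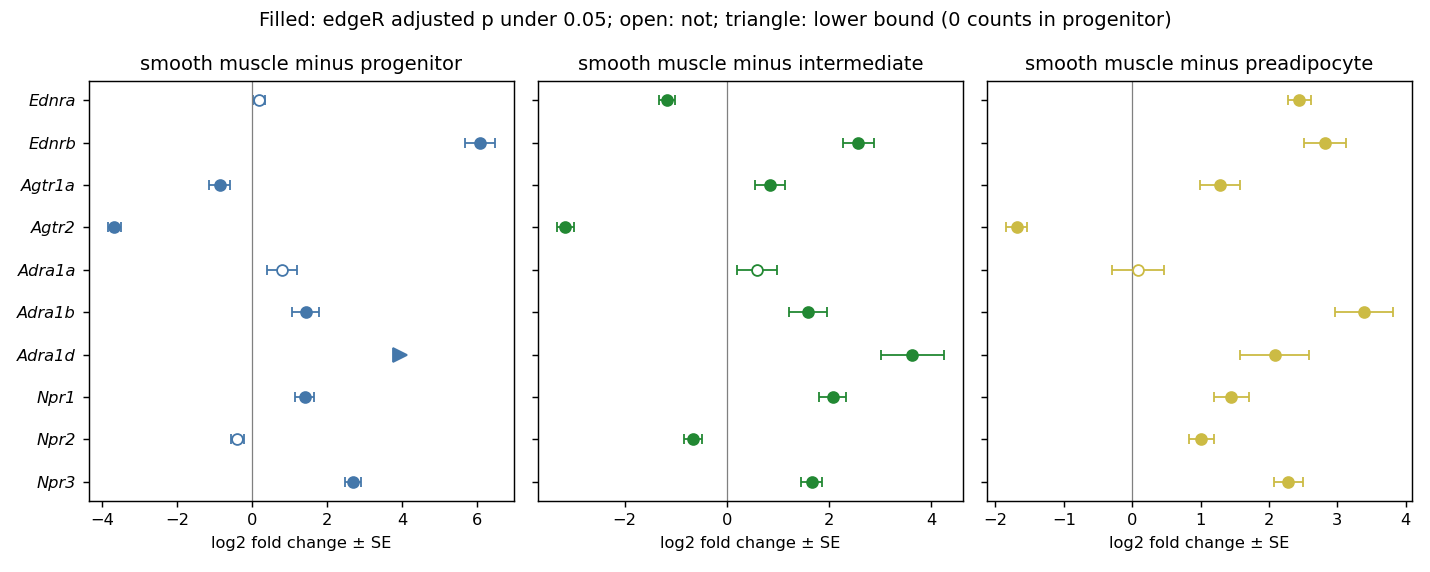
Log2 difference of each receptor gene between smooth muscle and progenitor, intermediate and preadipocyte cells, with its SE; filled points passed the edgeR test at an adjusted p of 0.05, open points did not, and the triangle is the lower bound for Adra1d, which had 0 counts in progenitor cells. Agtr2 lies left of 0 in all 3 panels, and Ednrb, Adra1b, Adra1d, Npr1 and Npr3 lie right of 0 in all 3.

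Genes with the most similar profile were found for the 7 receptor genes whose mean reached 5 CPM in a population, by the root mean square difference of centred log2 CPM over the 12 libraries among 11908 protein-coding genes. Nearest to Ednra were Robo2 (0.15), Pam (0.16), which amidates peptide hormones, and Cpe (0.24), a carboxypeptidase of hormone processing. For Agtr2 they were Pdgfra (0.23), a marker of mesenchymal progenitors, Mest (0.28) and Fmo1 (0.28). Pdgfra itself went from 524 ± 35.9 CPM in progenitor through 303 ± 23.4 and 105 ± 23.4 to 34.2 ± 4.99 in smooth muscle cells, in the same order of populations as Agtr2. Ednrb was closest to Pcdh1 (0.38), Insc (0.40) and Mcam (0.43), the last an adhesion molecule of vessel walls. For Npr3 the nearest were Rassf4 (0.22), Zfhx3 (0.25) and Bcr (0.25), for Npr1 Plppr3 (0.25), Pfkp (0.27) and Fjx1 (0.27), for Npr2 Podxl2 (0.11), Pkd2 (0.13) and Glg1 (0.15), and for Agtr1a Sp110 (0.31), Mst1r (0.39) and Daglb (0.42). These values describe likeness within 12 libraries that fall into 4 groups, and carry no test.

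Ligands and processing enzymes of the same systems were followed from gene lists, again comparing smooth muscle with the mean of the remaining populations. In this comparison 33.6% of all genes were higher and 23.4% lower, with a median of 0.11. The counts of each list are to be read beside these shares. Of 5 endothelin genes tested, 2 were higher and 2 lower, with a median of -0.21. The endothelin genes divided: Edn2 rose 12.5-fold, to 6.04 ± 1.66 CPM (adjusted p = 1.38e-08), and Edn1 1.94-fold, to 9.86 ± 1.73 (adjusted p = 0.00832), while Edn3, a ligand that acts mainly through Ednrb, was 7.80-fold lower (adjusted p = 7.62e-08). Edn3 stood at 12.99 ± 2.47 CPM in progenitor cells, 17.3 ± 1.95 in intermediate cells and 0.877 ± 0.223 in smooth muscle. Its preadipocyte level is not given here, so no relation to Ednrb over the 4 populations is drawn. The converting enzyme gene Ece1 was 1.46-fold lower in smooth muscle (adjusted p = 0.00746).

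Of 14 renin-angiotensin genes tested, 5 were higher and 5 lower in smooth muscle (33.6% and 23.4% of all genes), with a median of 0.01. Agt, which encodes the angiotensin precursor, was 10.8-fold lower (log2 -3.43 ± 0.24, adjusted p = 9.97e-09), with 4.15 ± 1.49 CPM in smooth muscle against 99.6 ± 26.1 in preadipocytes, 57.5 ± 12.3 in progenitor and 15.6 ± 1.52 in intermediate cells. Agtr1b, the near copy of Agtr1a, was 6.17-fold higher (adjusted p = 6.62e-07) but low, at 4.99 ± 0.96 CPM in smooth muscle against 0.260 ± 0.135 to 1.83 ± 0.58 elsewhere. Enpep, Mas1 and Mrgprd were also higher, and Mme, Anpep, Agtrap and Ctsd were also lower, named after their values were seen because the counts are small.

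In the catecholamine list, 7 of 8 genes tested were higher in smooth muscle and none lower, with a median of 3.77. Of all genes, 33.6% were higher and 23.4% lower. The list's members that led were the noradrenaline synthesis genes Dbh (139 ± 21.4 CPM in smooth muscle against 0.372 ± 0.272 to 19.3 ± 5.08 elsewhere, adjusted p = 1.21e-11), Th (104 ± 18.6 against 0.328 ± 0.133 to 13.8 ± 2.22, adjusted p = 1.81e-11) and Ddc (86.2 ± 14 against 7.70 ± 0.34 to 15.95 ± 4.31, adjusted p = 6.07e-11). Dbh and Th are also sympathetic neuron markers, all 5 of which were higher in smooth muscle, and the part of such cells in any value of smooth muscle was not tested.

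Among 6 other adrenergic receptors, 3 were higher in smooth muscle and 1 lower (33.6% and 23.4% of all genes), with a median of 0.74. Adra2c was 21.5-fold higher, at 6.53 ± 0.45 CPM (adjusted p = 1.10e-08), Adra2a 3.83-fold higher, at 7.92 ± 0.84 (adjusted p = 3.64e-06), and Adra2b completed the count, named after its value was seen. Adrb3, the beta receptor of adipocytes, was 7.46-fold lower (adjusted p = 1.49e-07) and stood at 46.8 ± 12.4 CPM in preadipocytes against 0.799 ± 0.221 in smooth muscle.

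Of 4 genes tested for the natriuretic peptides and the proteases that process them, 2 were higher in smooth muscle and none lower. Their median was 1.05, and of all genes 33.6% were higher and 23.4% lower. Corin, which activates the atrial peptide, was 6.45-fold higher (5.06 ± 0.77 CPM, adjusted p = 2.00e-06), but it was also 3.41 ± 1.34 in intermediate cells. Nppb, the B-type peptide, passed at 8 to 15 counts per smooth muscle library (0.820 ± 0.243 CPM, adjusted p = 0.033). The ligand of Npr2, Nppc, did not pass (log2 0.04 ± 0.22, adjusted p = 0.894), with 8.84 ± 0.88 CPM in progenitor cells and 4.27 ± 0.83 in smooth muscle. Furin, a general proprotein convertase, did not pass against the mean of the other 3 (log2 0.69 ± 0.29, adjusted p = 0.056), with 112 ± 37.03 CPM in intermediate cells, 73.8 ± 24.3 in smooth muscle, 30.2 ± 18.9 in preadipocytes and 28.3 ± 7.06 in progenitor cells. Nppa was not analysed here.

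Receptors for other vasoactive signals were higher in smooth muscle for 20 of 38 genes tested and lower for 10, with a median of 0.88. Of all genes, 33.6% were higher and 23.4% lower. Ramp1, the partner of the receptor for calcitonin gene-related peptide, stood at 86.3 ± 5.90 CPM against 1.09 ± 0.23 to 4.77 ± 1.14 elsewhere (adjusted p = 2.98e-11). F2rl1, a protease-activated receptor, was 20.8 ± 4.37 CPM against at most 0.891 ± 0.532 (adjusted p = 1.33e-10), and Npy1r, a receptor for the sympathetic co-transmitter neuropeptide Y, was 34.3 ± 5.57 against at most 2.08 ± 0.80 (adjusted p = 3.72e-10).

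Downstream of Gq and G12/13, 14 of 24 genes were higher in smooth muscle and 3 lower, with a median of 0.63. Of all genes, 33.6% were higher and 23.4% lower. The myosin light chain kinase gene Mylk rose 14.6-fold, to 258 ± 5.67 CPM (adjusted p = 4.88e-12). Both genes of myosin phosphatase control named by the rule also rose: Ppp1r14a, an inhibitor, 9.52-fold to 33.5 ± 1.35 CPM (adjusted p = 1.78e-10) and Ppp1r12a, the targeting subunit, 3.42-fold to 207 ± 6.63 (adjusted p = 3.01e-10). The 3 lower genes were Gna13, Itpr2 and Arhgef12, named after their values were seen. Among 12 genes that switch receptors off, 4 were higher and 1 lower (33.6% and 23.4% of all genes), with a median of 0.25. These included the GTPase activators Rgs5 (574 ± 52.2 CPM in smooth muscle, 337 ± 33.1 in intermediate cells and 9.69 ± 2.60 in preadipocytes), Rgs4 (255 ± 48.7 in smooth muscle) and Rgs2 (88.5 ± 10.6), with adjusted p from 3.90e-12 to 3.35e-08. Grk3 was the other gene higher and Arrb1 the 1 lower, both named after their values were seen.

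The cGMP pathway carries the signal of Npr1 and Npr2. Of 20 genes, 19 were higher in smooth muscle and 1, Pde3b, was lower (log2 -0.57 ± 0.21, adjusted p = 0.0298; named after its value was seen), with a median of 1.88. Of all genes, 33.6% were higher and 23.4% lower. Against intermediate cells alone, 11 of the 20 were higher in smooth muscle, 1 was lower and 8 were not called, with a median of 0.84. In that pair 15.7% of all genes were higher and 13.1% lower. Gucy1a1 and Gucy1b1 encode the soluble guanylyl cyclase that nitric oxide activates. They stood at 328 ± 46.4 and 83.2 ± 13.7 CPM in smooth muscle, 163 ± 16.2 and 63.8 ± 9.92 in intermediate cells and at most 26.4 ± 2.24 and 7.92 ± 0.59 in the other populations (adjusted p = 4.50e-11 and 1.16e-10 for smooth muscle against the mean). Mrvi1, a target of cGMP-dependent protein kinase at calcium stores, was 62.3 ± 8.91 CPM in smooth muscle against at most 9.18 ± 2.19 (adjusted p = 6.50e-11).

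**Figure D5:**
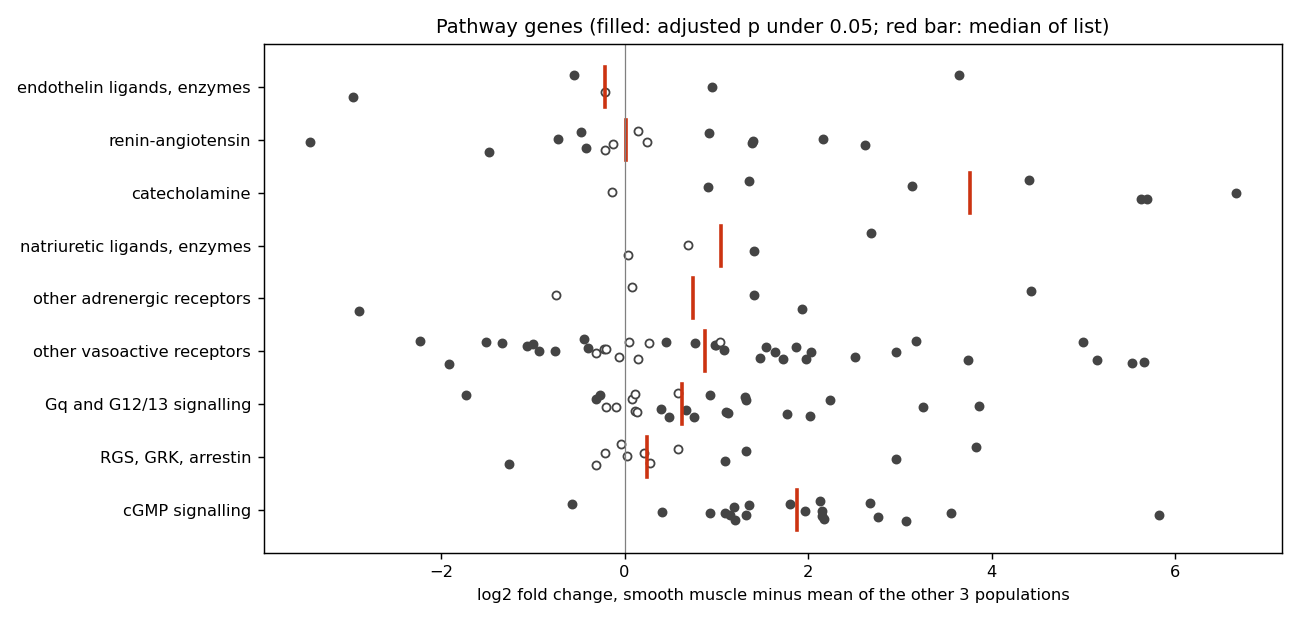
Log2 difference between smooth muscle and the mean of the other 3 populations for every tested gene of 9 lists; filled points passed the edgeR test at an adjusted p of 0.05, open points did not, the red bar is the median of the list and vertical spread within a row carries no value. The cGMP list has 19 of 20 genes higher with a median of 1.88, and the renin-angiotensin list is split 5 higher and 5 lower around 0.01. Of all genes, 33.6% were higher and 23.4% lower.

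Over all these lists, 76 of 131 genes tested were higher in smooth muscle and 23 lower, with a median of 0.96 beside 0.11 over all genes. Of all genes, 33.6% were higher and 23.4% lower. Against intermediate cells alone, 51 of the 131 were higher in smooth muscle and 20 lower (median 0.48, beside 0.095 over all genes). In that pair 15.7% of all genes were higher and 13.1% lower. There the Gq and G12/13 list had 8 of 24 higher and 4 lower. None of the 4 natriuretic genes was called, while 7 of 8 catecholamine genes were again higher. The pathway genes were also described between intermediate and progenitor cells, where 51 were higher and 19 lower (median 0.27). Of all genes, 14.1% were higher and 13.4% lower in that pair (median 0.046). In the cGMP list, 16 of 20 genes were higher in intermediate cells and none lower. Between preadipocytes and intermediate cells, 26 were higher and 62 lower (median -0.72, beside -0.24 over all genes). Of all genes, 26% were higher and 31.1% lower in that pair. In the Gq and G12/13 list 1 was higher and 15 lower. Comparisons that involve the same population share its libraries.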

How the data were processed

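Libraries of poly(A) RNA were made with a SMART-Seq v4 kit, per the labels' protocols. The submitters' processing notes name STAR 2.5.2a, DESeq2 1.26.0 and mm10. How reads were counted, on which annotation and whether by strand is not given in the sources used here. Of 3 tables from the authors, the first holds counts as deposited, unscaled whole numbers, and all tests used it. The second is a normalized signal, deposited as counts divided by 1 factor per library. These factors equalled recomputed median-ratio size factors to a relative difference of 4.9e-11. The third, also deposited by the authors, holds log2 values, whose correlation across genes with log2 CPM was at least 0.996 in each library. The members and gene lists were chosen with earlier results of these data known.

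Groups came from the sample titles. Genes passing filterByExpr (21285, with at least 99.33% of each library's counts) were fitted with edgeR 4.0.16 in R 4.3.3 (TMM scaling, glmQLFit and glmQLFTest, two-sided) in 1 model over 12 libraries with a coefficient per population. Calls were made at 0.05 after Benjamini-Hochberg adjustment over all genes tested. The SE of a log2 fold change is that implied by the F statistic. The common biological coefficient of variation was 0.20, and the script was tested on simulated data. Named genes were all 10 receptors, up to 3 genes per list with the smallest p for smooth muscle against the other 3 populations' mean, the ligand genes, and the 3 nearest profiles (prior count 2). A limit for a count of 0 was 3 counts per library and covers counting error only. Ratios needed 10 counts of both genes. Alternatives were median-ratio scaling, library size alone, DESeq2 1.42.0, no filter, a filter of 5 CPM in 3 libraries, a replicate block, subtraction of an even background, a fit of only the populations compared, and leaving out each library. Replicate pairs differed by more than sampling noise (chi-square per degree of freedom of 4.37 to 84.5). A result of the renin-angiotensin list is not reported here.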

Additional observations from a re-analysis of the deposited data

How the results depend on the processing

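The alpha-1 receptor genes had 0 to 79 counts a library, which limits the precision of their values, and scaling by library size alone moved the median of all genes by up to 0.48 on the log2 scale. With no filter on low counts, 2 receptor genes were lower in smooth muscle than the mean instead of 1, the added gene being Npr2 (log2 -0.41, edgeR adjusted p = 0.025). Directions turned only for differences that had not passed in the main fit, listed here on the log2 scale. Library size alone gave 0.31 for Npr2 in smooth muscle against the mean, which passed as higher (edgeR adjusted p = 0.049), and 0.05 against progenitor cells. Against the mean, Npr2 was thus called in opposite directions by library size alone and with no filter. Library size alone also gave 0.34 for Npr1 in preadipocytes against progenitor cells. For preadipocytes against intermediate cells it gave 0.20 for Ednrb and 0.022 for Agtr1a. For Npr2 against the mean, the 5 CPM filter gave 0.10, background subtraction 0.11 and leaving out a library -0.14 to 0.058. For Ednra in smooth muscle against progenitor cells, no filter gave -0.31. For Adra1a in smooth muscle against preadipocytes, median-ratio factors and DESeq2 gave -0.0072 and -0.0078, no filter -0.36, background subtraction -0.45, a fit of both populations alone -0.16, and leaving out a library -0.26 to 0.32. For Adra1a in intermediate against progenitor cells, no filter gave -0.050, background subtraction -0.00069 and leaving out a library -0.025 to 0.54. Npr1 in preadipocytes against progenitor cells came to 0.061 with median-ratio factors and with DESeq2, 0.085 with the 5 CPM filter and -0.45 to 0.25 when a library was left out. Leaving out a library gave -0.36 to 0.22 for Adra1b in intermediate against progenitor cells and -0.52 to 0.32 for Ednrb in preadipocytes against intermediate cells. The cause of these turns was not tested.

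Whether replicate numbers pair libraries across populations is not known. Of 18 correlations of same-numbered deviations, 4 were over 0.1, and they ranged from -0.25 to 0.41. Between intermediate and smooth muscle libraries they were 0.09, 0.26 and 0.41, and between progenitor and smooth muscle libraries 0.03, -0.25 and -0.12. With the replicate block, 9 receptor genes again differed among populations, 6 were higher and 1 lower in smooth muscle, and 78 pathway genes were higher. The block changed 1 receptor call, Adra1d in preadipocytes against intermediate cells, which passed (log2 1.43, adjusted p = 0.046).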
